A study of Homo sapiens with 14 samples.

Results

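YAP, the TEAD factors and genes that they are known to switch on were followed by RNA-seq in SCC23, a line of head and neck squamous cell carcinoma (HNSCC) cells that has long been in culture. The 10 genes were taken by name from the count files, which list 59471 gene names, and comprised the coactivators YAP1 and WWTR1 (TAZ), the DNA-binding factors TEAD1 and TEAD4, the Hippo kinase LATS2, the YAP-binding scaffold AMOTL2, the secreted matricellular proteins CCN1 (CYR61) and CCN2 (CTGF), the nuclear cofactor ANKRD1, and the receptor tyrosine kinase AXL. The rule was their names alone, and all 10 had counts in all 14 libraries and passed the filter on low counts in every comparison. The study asked how loss of KMT2D, a histone H3 lysine 4 methyltransferase, changes HNSCC cells that are short of glucose.

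Libraries came from KMT2D-WT cells, which had received a Cas9-GFP plasmid with an sgRNA against LacZ, and from KMT2D-KO cells, which had received the same plasmid with an sgRNA against KMT2D (lines KO1 and KO2). GFP-positive cells were sorted, and no cloning of single cells is described, so each line may hold a mixture of edited cells. Cells were kept in high-glucose medium (+Glc) or deprived of glucose for 6 h (-Glc). With and without glucose there were 3 libraries of KMT2D-WT and 4 of KMT2D-KO, from 2 experiments. Experiment 1 held 1 library of KMT2D-WT, KO1 and KO2 per condition, and experiment 2 held 2 of KMT2D-WT and 1 of each line. No label says which libraries came from separate cultures, so the p-values measure the spread between these libraries, part of which may be technical.

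In the Hippo pathway, the kinases MST1/2 (STK4, STK3) and LATS1/2 phosphorylate YAP and TAZ, which are then held in the cytoplasm and degraded. Unphosphorylated YAP and TAZ enter the nucleus and activate genes through TEAD factors, and LATS2 and AMOTL2 are themselves targets that restrain YAP. CCN1, CCN2 and ANKRD1 are the targets most used as a readout in squamous and other epithelial cells, they also respond to the actin-sensing MRTF-SRF factors, and YAP activity is mostly controlled at the protein, which RNA counts do not show.

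To show where TEAD factors could bind, the 250 bases before each RefSeq start site (GRCh38.p14) were searched for the TEAD core motif GGAATG on both strands. RefSeq promoters were matched for 7 of the 10 genes (10 start sites), and CCN1, TEAD1 and TEAD4 were not matched. At least 1 motif lay before 5 of the 10 start sites, which belong to 5 of the 7 genes, against 11.9% of the 35116 promoters searched. CCN2 held 3, where 0.0826% of all promoters held at least 3, and ANKRD1 held 2, where 0.94% of promoters held at least 2. These are matches of letters and not measured binding. The CCN2 sequence (chr6:131951373-131951622, minus strand) and the ANKRD1 sequence (chr10:90921088-90921337, minus strand) are printed whole, because each held more than 1 match. A window of 30 bases is given for the single matches. Capitals mark the motif, which reads CATTCC where it lies on the other strand.
CCN2: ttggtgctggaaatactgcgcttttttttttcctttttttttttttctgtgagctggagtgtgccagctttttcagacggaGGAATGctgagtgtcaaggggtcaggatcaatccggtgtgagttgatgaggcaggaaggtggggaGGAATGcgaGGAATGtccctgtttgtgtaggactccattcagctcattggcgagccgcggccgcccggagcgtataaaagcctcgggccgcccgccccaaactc
ANKRD1: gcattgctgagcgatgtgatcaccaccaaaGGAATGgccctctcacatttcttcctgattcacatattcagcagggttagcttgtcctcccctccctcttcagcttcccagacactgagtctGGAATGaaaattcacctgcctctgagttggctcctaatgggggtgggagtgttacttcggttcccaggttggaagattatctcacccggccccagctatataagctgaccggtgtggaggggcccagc
YAP1: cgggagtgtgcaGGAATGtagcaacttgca
AMOTL2: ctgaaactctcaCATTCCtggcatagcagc
AXL: cagactttgcacCATTCCactccctccgct
The windows lie at chr11:102110273-102110302 (YAP1, plus strand), chr3:134374499-134374528 (AMOTL2, minus strand, 1 of 2 starts) and chr19:41226531-41226560 (AXL, plus strand, 1 of 2 starts). In CCN2 the motifs began 169, 104 and 95 bases before the start and in ANKRD1 220 and 128 bases before it. No match was found before the starts of LATS2 and WWTR1.

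**Figure D1:**
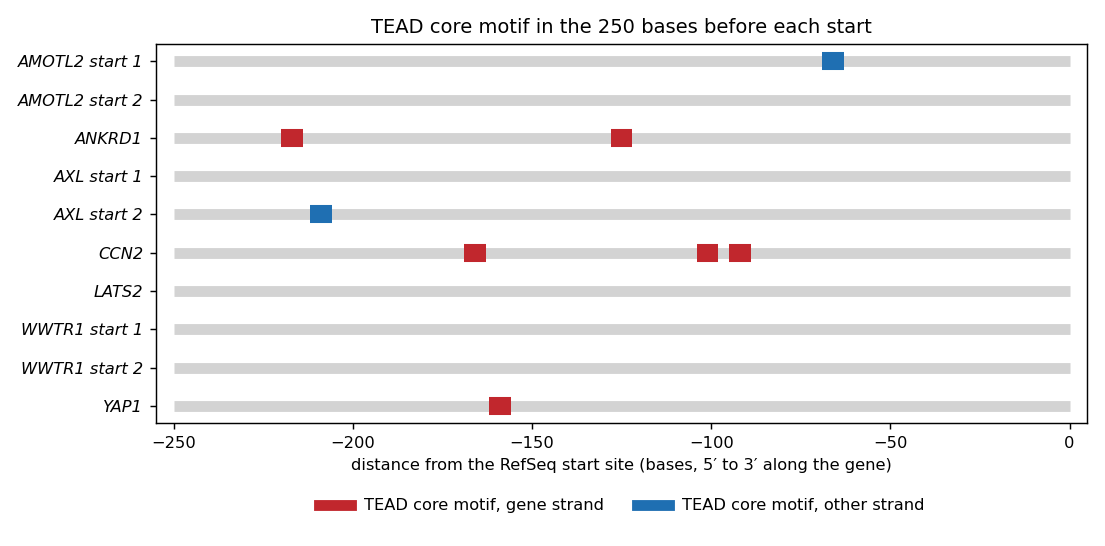
Position of the TEAD core motif in the 250 bases before each matched RefSeq start site, with distance from the start on the x axis and 1 row per start (genes with 2 starts have 2 rows). CCN2 held 3 matches and ANKRD1 held 2, AMOTL2, AXL and YAP1 held 1 at 1 start, and LATS2 and WWTR1 held none.

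Total counts ranged from 15669154 to 62968057 per library. In the 4 +Glc libraries of experiment 2, both mates of a pair were counted, as seen in the excess of even numbers among low counts (67.4% to 70.6% even, 37.4% to 42.7% elsewhere). KMT2D itself did not mark the KMT2D-KO libraries with glucose, where it was 266 to 279 CPM (TMM-normalised counts scaled to a common library size) in KMT2D-WT, 182 and 184 CPM in the libraries labelled KO1, and 323 and 373 CPM in those labelled KO2. Without glucose it was 231 to 239 CPM in KMT2D-WT and lower in each KMT2D-KO library, with 19.9 CPM in KO1 of experiment 1 and 145 to 190.2 CPM in the others. Over 12 genes that separate the lines with glucose by at least 3 log2 units, the -Glc library of experiment 2 labelled KO1 lay 0.45 log2 units from KO2 and 3.17 from KO1, so its line label is in doubt and the lines were compared only with glucose. The 2 KMT2D-WT and the 2 KMT2D-KO libraries of experiment 2 without glucose differed little within each pair (chi-square per gene 1.71 and 1.78, against 25.9 to 83 in the other pairs), and results without glucose are also given with each pair summed to 1 library. The other pairs are not like for like: those of KMT2D-KO set KO1 against KO2, and that of KMT2D-WT (28.7) had both mates counted. The squamous markers KRT5, KRT14, KRT17, TP63, CDH1 and EPCAM had counts in every library. Their summed level was 750.6 to 788 CPM in KMT2D-WT and 500.3 to 979 CPM in KMT2D-KO with glucose, and 855 to 860.1 CPM and 945 to 2441 CPM without. Of the 8 markers of other cell types, PTPRC, PECAM1, CD68 and DCN stayed at or below 0.816 CPM and MLANA at or below 2.29 CPM, while VIM (log2 fold change 1.67 with and 1.53 without glucose) and COL1A1 (1.26 and 1.33) were called higher in KMT2D-KO in both conditions and COL3A1, at most 5.26 CPM, with glucose. VIM was 85.7 to 95.5 CPM in KMT2D-WT and 156 to 432 CPM in KMT2D-KO with glucose. Their part in the results was not tested. In bulk RNA, fewer cells with a transcript and less of it per cell cannot be told apart.

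Per kilobase of exon, AXL (median 92.0 CPM per kb over the 14 libraries), CCN1 (91.8), CCN2 (81.4) and YAP1 (77.1) stood highest. ANKRD1 (40.3), TEAD4 (36.6), AMOTL2 (30.8) and TEAD1 (24.8) formed a middle range, with LATS2 (7.18) and WWTR1 (2.98) lowest. YAP1 thus had far more transcript than its paralog WWTR1, 45.9 to 101 against 2.40 to 4.35 CPM per kb, with no overlap in any of the 14 libraries. All neighbours in this order overlapped in their ranges over the libraries. The targets varied most: the highest library exceeded the lowest 45.9-fold for ANKRD1, 17.0-fold for CCN1 and 12.8-fold for CCN2, but 1.66-fold for AXL. The plot of levels by library shows that CCN1 and CCN2 stood out in the deprived KMT2D-KO libraries and that the 5 lowest ANKRD1 libraries were KMT2D-KO, the 4 with glucose and the deprived KO1 library of experiment 1.

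**Figure D2:**
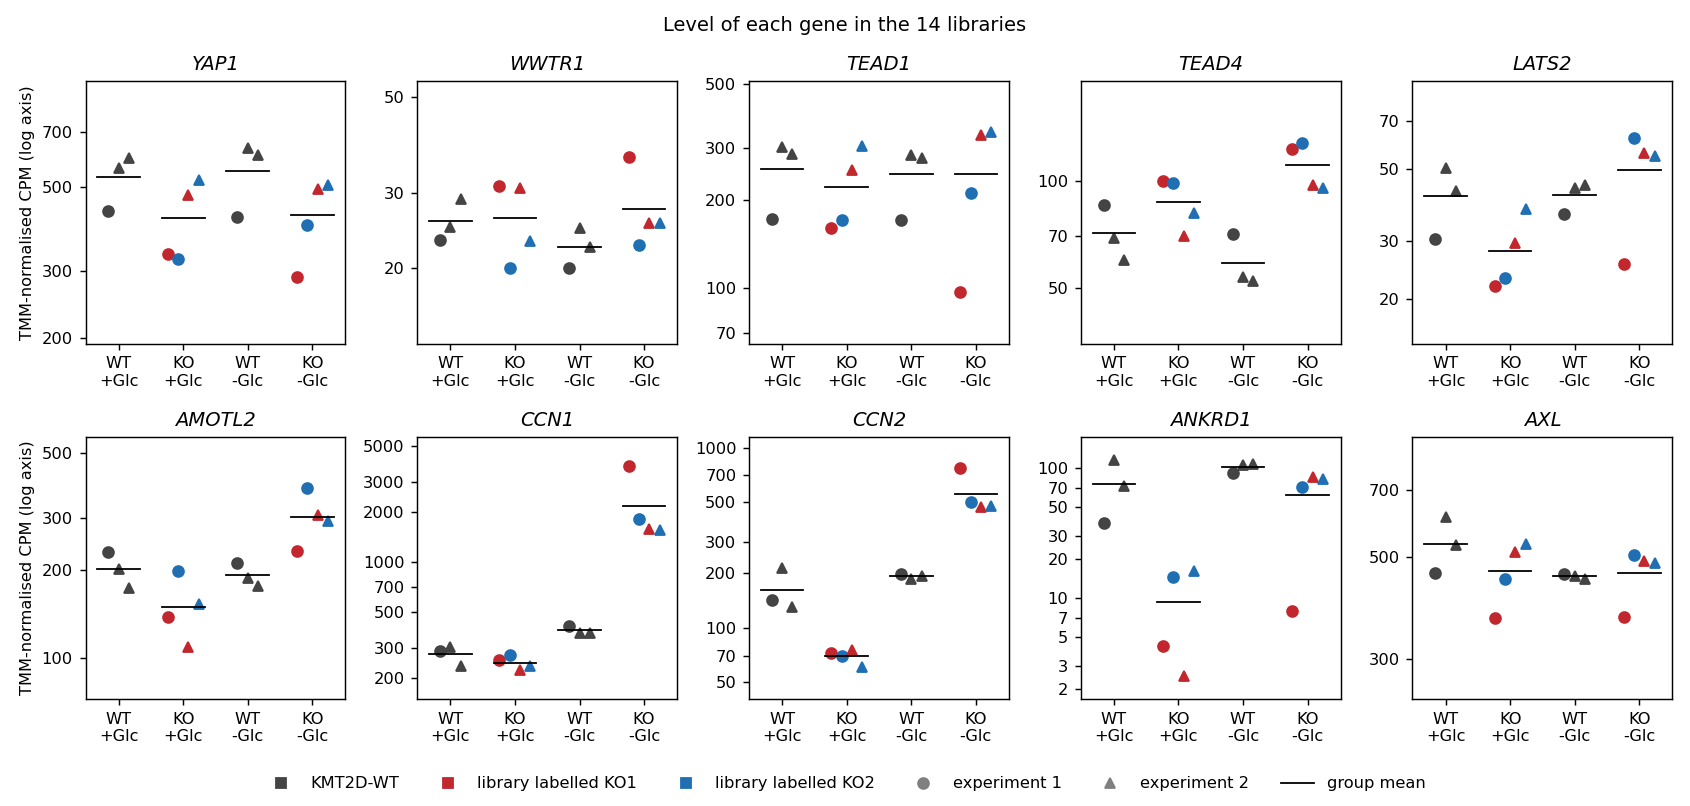
TMM-normalised CPM (log axis) of each of the 10 genes in the 14 libraries, grouped by genotype and glucose, with colour for the line on the label, circles for experiment 1, triangles for experiment 2 and a bar at the group mean. CCN1 and CCN2 are highest in the 4 deprived KMT2D-KO libraries, and the 5 lowest ANKRD1 libraries are KMT2D-KO, the 4 with glucose at 2.52 to 16.1 CPM and the deprived KO1 library of experiment 1 at 8.02 CPM.

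With glucose, 5 of the 10 genes were lower in KMT2D-KO than in KMT2D-WT cells and no gene was higher. The targets ANKRD1 and CCN2 fell most, to 0.138 and 0.432 of the KMT2D-WT level, and the feedback genes AMOTL2 and LATS2 and the coactivator YAP1 fell by less. CCN1, AXL, TEAD1, TEAD4 and WWTR1 did not pass the test. Of all 20423 genes tested, 11.7% were called lower and 13% higher at an adjusted p under 0.05 (edgeR quasi-likelihood F-test with experiment in the model, Benjamini-Hochberg over all genes tested).

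CCN2, a matricellular protein encoded at chr6:131948176-131951372, was 143 CPM in the KMT2D-WT library of experiment 1 and 214 and 131 CPM in those of experiment 2. It was 72.4, 70.0, 75.1 and 60.2 CPM in the KMT2D-KO libraries KO1 and KO2 of experiment 1 and KO1 and KO2 of experiment 2. All KMT2D-KO libraries lay below all KMT2D-WT libraries, and the log2 fold change was -1.21 (SE 0.18, adjusted p = 0.00148, edgeR). ANKRD1, an ankyrin repeat cofactor at chr10:90912096-90921087, was 38.0, 116 and 72.9 CPM in KMT2D-WT. It was 4.30, 14.4, 2.52 and 16.1 CPM in the same order of KMT2D-KO libraries, also without overlap, and the 2 KO1 libraries were the lowest. Its log2 fold change was -2.86 (SE 0.64, adjusted p = 0.0113, edgeR). CCN2 and ANKRD1 were the 2 of 10 genes whose groups did not overlap, and over all genes tested this share was 20.1%.

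AMOTL2, an angiomotin that binds and restrains YAP (chr3:134355347-134375479), was 229, 201 and 173 CPM in KMT2D-WT and 138, 197, 109 and 153 CPM in KMT2D-KO. The groups overlapped through the KO2 library of experiment 1. Its log2 fold change was -0.49 (SE 0.15, adjusted p = 0.0492, edgeR). LATS2, the kinase that inactivates YAP and TAZ (chr13:20973036-21061586), was 30.5, 50.4 and 42.9 CPM in KMT2D-WT and 21.9, 23.2, 29.8 and 37.7 CPM in KMT2D-KO. Within each experiment every KMT2D-KO library was below every KMT2D-WT library, by a log2 fold change of -0.45 (SE 0.11, adjusted p = 0.0182, edgeR). YAP1 (chr11:102110447-102233424) was 433, 562 and 599.8 CPM in KMT2D-WT and 333, 323, 478 and 524 CPM in KMT2D-KO, likewise below within each experiment, and fell by 0.28 on the log2 scale (SE 0.08, adjusted p = 0.0243, edgeR). Of its exonic bases, 10.1% are shared with other genes and 2 pseudogenes carry its name, so part of its reads could be split between copies.

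CCN1 (chr1:85580761-85584589), the close relative of CCN2, did not follow it with glucose. It was 291, 306 and 236 CPM in KMT2D-WT and 254, 274, 223 and 234 CPM in KMT2D-KO (log2 fold change -0.20, 95% interval -0.44 to 0.04, adjusted p = 0.216, edgeR). TEAD4 (chr12:2959330-3040676) was 85.5, 69.2 and 59.9 CPM in KMT2D-WT and 99.7, 98.8, 69.8 and 81.0 CPM in KMT2D-KO, with a log2 fold change of 0.23 (SE 0.09, adjusted p = 0.101). AXL (chr19:41219223-41261766), TEAD1 (chr11:12674421-12944737) and WWTR1 (chr3:149517235-149736714) overlapped between the genotypes, with log2 fold changes of -0.14, -0.07 and 0.06 (SE 0.10, 0.09 and 0.17). Of the exonic bases of WWTR1, 9.05% are shared with its antisense gene WWTR1-AS1, and of CCN2 8.34% with another gene. Reads were counted without strand, so those of the partners cannot be told apart. CCN2 was called in each of the 7 fits that left out 1 library, ANKRD1 in 6, LATS2 in 5, YAP1 in 4 and AMOTL2 in 2. The ANKRD1 value ran from -3.56 without the KO2 library of experiment 2 to -2.28 without the KO1 library of experiment 2. Leaving out KMT2D-WT of experiment 1 took the count from 5 to 1 (CCN2), where 10% of all genes were called. The count was 3 without either KMT2D-WT library of experiment 2 (15.7% and 16.2% of all genes). It was also 3 without the KO1 library of experiment 2 (25.3%).

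**Figure D3:**
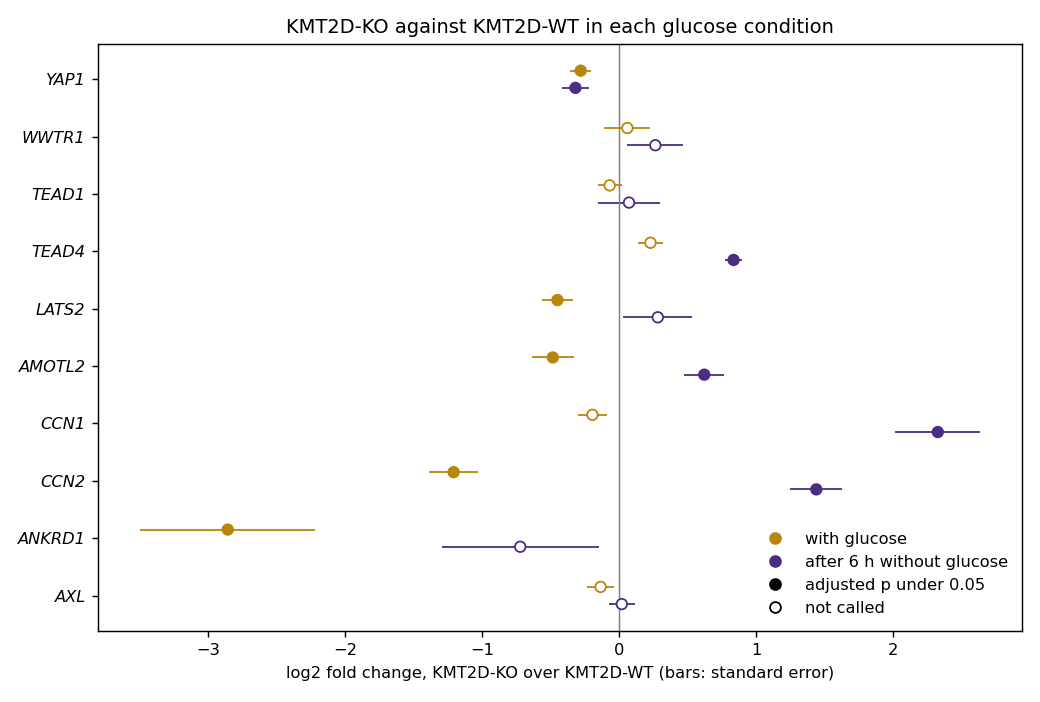
Log2 fold change of KMT2D-KO over KMT2D-WT for the 10 genes with and without glucose (x axis, points with standard error), filled where the adjusted p was under 0.05. CCN2 lies at -1.21 with glucose and at 1.44 without, CCN1 at -0.20 and 2.32, and AMOTL2 at -0.49 and 0.62.

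Both lines were compared with KMT2D-WT with glucose in 1 model. In KO1 5 of the 10 genes were lower and 1 was higher, where 16.5% and 17% of all genes were called, and in KO2 also 5 were lower and 1 higher, where 18% and 18.8% were called. YAP1 (log2 fold change -0.31 in KO1 and -0.26 in KO2), LATS2 (-0.57 and -0.35), CCN2 (-1.13 and -1.31), ANKRD1 (-4.56 and -2.16) and AMOTL2 (-0.76 and -0.25) were lower in both. WWTR1 was called higher in KO1 (0.29) and TEAD4 in KO2 (0.28). The comparisons share their KMT2D-WT libraries. Between the lines themselves, 2 genes were lower in KO1 (7.37% of all genes) and 1 was higher (7.89%). ANKRD1 was lower in KO1 by 2.40 on the log2 scale (SE 0.38, adjusted p = 0.000404, edgeR) and AMOTL2 by 0.51 (SE 0.09, adjusted p = 0.00104), while WWTR1 was higher by 0.51 (SE 0.12, adjusted p = 0.00659). The ANKRD1 call was lost without the KO1 library of experiment 2 (-1.37, adjusted p = 0.0676, edgeR), and its value was -2.99 without the KO1 library of experiment 1. The AMOTL2 call was lost without the KO2 library of experiment 1 (adjusted p = 0.0539). The WWTR1 call was lost in 3 of the 7 fits that left out 1 library, those without KO1 of experiment 1, KO2 of experiment 1 or KO2 of experiment 2 (adjusted p = 0.0999, 0.0735 and 0.11, edgeR). No difference between the lines was called for CCN2 (KO1 minus KO2 0.18, 95% interval -0.19 to 0.56) or CCN1 (-0.10, -0.32 to 0.13).

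After 6 h without glucose, the targets CCN1, CCN2 and AMOTL2 and the factor TEAD4 were higher in KMT2D-KO than in KMT2D-WT cells, CCN1 by 5.01-fold and CCN2 by 2.71-fold. YAP1 was lower, and ANKRD1, LATS2, TEAD1, WWTR1 and AXL did not pass the test. Many genes differed in this condition: of the 16782 tested, 25.9% were called higher and 24.9% lower by edgeR. The 5 of 10 genes called here thus match about the share of all genes called, and the sizes for CCN1 and CCN2 carry the description.

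CCN1 was 412, 372 and 373 CPM in the KMT2D-WT libraries without glucose. In experiment 1 it reached 3781 CPM in KO1 and 1801 CPM in KO2, and both KMT2D-KO libraries of experiment 2 were near each other at 1577 and 1558 CPM. The lowest KMT2D-KO library was far above the highest KMT2D-WT library, and the log2 fold change was 2.32 (SE 0.31, adjusted p = 0.00105, edgeR). CCN2 was 198, 187 and 193 CPM in KMT2D-WT and 767, 496, 469 and 476 CPM in KMT2D-KO, again without overlap and highest in KO1 of experiment 1 (log2 fold change 1.44, SE 0.19, adjusted p = 0.000958, edgeR). AMOTL2 was 211, 187 and 176 CPM in KMT2D-WT and 230.5, 378, 306 and 292 CPM in KMT2D-KO. Its groups were separate here, and the log2 fold change was 0.62 (SE 0.15, adjusted p = 0.0113, edgeR).

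TEAD4 had the smallest standard error of the 10 genes. It was 70.6, 53.6 and 52.1 CPM in KMT2D-WT and 123, 128, 97.5 and 95.4 CPM in KMT2D-KO, with a log2 fold change of 0.83 (SE 0.06, adjusted p = 0.000116, edgeR). YAP1 was 416.5, 638 and 608 CPM in KMT2D-WT and 289, 398, 495 and 507 CPM in KMT2D-KO, below KMT2D-WT within each experiment (log2 fold change -0.32, SE 0.10, adjusted p = 0.0298, edgeR). ANKRD1 kept the lower level in KMT2D-KO in each library but with a wide spread. It was 92.1, 106 and 107 CPM in KMT2D-WT and 8.02, 71.5, 85.3 and 82.4 CPM in KMT2D-KO; the lowest library was KO1 of experiment 1 (log2 fold change -0.72, SE 0.57, adjusted p = 0.327, edgeR). Groups did not overlap for 5 of the 10 genes, against 35.2% of all genes tested.

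LATS2 was 36.4, 43.6 and 44.6 CPM in KMT2D-WT and 25.6, 62.1, 55.9 and 54.9 CPM in KMT2D-KO, where KO1 of experiment 1 lay below KMT2D-WT and the others above (log2 fold change 0.28, SE 0.25). TEAD1 was 169.9 to 286 CPM in KMT2D-WT. It was lowest in KO1 of experiment 1 at 96.3 CPM, 211 CPM in KO2 of experiment 1, within the KMT2D-WT range, and up to 341 CPM in experiment 2 (log2 fold change 0.07, SE 0.23). WWTR1 (0.26, SE 0.20) and AXL (0.02, SE 0.09) overlapped between the groups. Without the KO1 library of experiment 1, 9 of the 10 genes were called, ANKRD1 (log2 fold change -0.38) and YAP1 lower and the rest except WWTR1 higher, while 74.4% of all genes were called in that fit. With the close pairs summed, 3 were called (CCN1, CCN2 and TEAD4) among 16.5% of all genes. The count was 3 also without the KMT2D-WT library of experiment 1 (34.3% of all genes) or 1 of those of experiment 2 (replicate 3, 36.5%). The YAP1 call was lost in 5 of the 7 fits that left out a library, among them the one without the KMT2D-KO library whose line is in doubt.

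The change of the KMT2D-KO effect between the glucose conditions was tested as an interaction over all 14 libraries. It was positive for CCN2, CCN1, AMOTL2 and TEAD4, 4 of 10 genes, where 4.73% of the 18678 genes tested were called higher and 6.54% lower. For CCN2 the log2 fold change of KMT2D-KO over KMT2D-WT was 2.67 higher without glucose (SE 0.26, adjusted p = 0.000175, edgeR), so that the gene lay on opposite sides of KMT2D-WT in the 2 conditions. For CCN1 it was 2.54 higher (SE 0.30, adjusted p = 0.000587), for AMOTL2 1.13 (SE 0.24, adjusted p = 0.0134) and for TEAD4 0.63 (SE 0.11, adjusted p = 0.00568). The 4 calls were made in all 14 fits that left out 1 library. ANKRD1 (2.16, SE 0.97, adjusted p = 0.17) and LATS2 (0.76, SE 0.30, adjusted p = 0.123) did not pass, although both did, with TEAD1, when the KO1 library of experiment 1 without glucose was left out and 22.5% of all genes were called. Over the 12 genes that separate the lines, every other deprived KMT2D-KO library lay nearer to KO2. The mix of lines thus differed between the glucose conditions, most of all in that fit, and its part in the interaction was not tested. Summing the close pairs left CCN1 and CCN2, where 1.23% of all genes were called.

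In experiment 2 the glucose conditions also differed in how reads were counted, so the deprivation contrast was set at experiment 1 in the fit of all 14 libraries. In that fit both genotypes shared the shift between experiments within a glucose condition, so the values also draw on experiment 2. In KMT2D-KO cells 6 of the 10 genes rose on deprivation (13% of all genes, with 14.3% falling), among them CCN1 by 3.30 (SE 0.25, adjusted p = 6.08e-06, edgeR) and CCN2 by 3.15 on the log2 scale (SE 0.22, adjusted p = 2.91e-06). ANKRD1 rose by 2.55 (SE 0.82, adjusted p = 0.0359), LATS2 by 0.98 (SE 0.25, adjusted p = 0.0127), AMOTL2 by 0.91 (SE 0.20, adjusted p = 0.00573) and TEAD4 by 0.34 (SE 0.09, adjusted p = 0.0156). For ANKRD1 the plain log2 changes of CPM in experiment 1 were 0.9 in KO1 and 2.31 in KO2, both below the fitted 2.55. The ANKRD1 call was lost in 10 of 14 fits that left out a library. Its values ran from 1.66 without the deprived KO2 library of experiment 1 to 3.50 without the KO2 +Glc library. Without the deprived KO1 library the value was 3.25. The TEAD4 call was lost without the KO2 +Glc library of experiment 1. Without the deprived KO1 library of experiment 1 the count was 8, with AXL and TEAD1 added, and 33.7% of all genes were called. In KMT2D-WT cells edgeR called 0 of the 10 (0.0696% of all genes higher and 0.112% lower), with 2 at an unadjusted p under 0.05, CCN1 (log2 fold change 0.75, SE 0.30) and TEAD4. CCN2 had a log2 fold change of 0.48 (SE 0.26, adjusted p = 0.623) there. Experiment 1 held 1 KMT2D-WT library per condition, so both the size and the spread of this contrast draw on the other libraries. In KMT2D-WT of experiment 1 the plain log2 changes of CPM were 0.50 for CCN1 and 1.28 for ANKRD1, against fitted values of 0.75 and 0.38.

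Within lines, CCN1 in experiment 1 went from 254 to 3781 CPM in KO1 (14.9-fold) and from 274 to 1801 CPM in KO2 (6.56-fold), and from 291 to 412 CPM in KMT2D-WT (1.42-fold). CCN2 rose 10.6-fold in KO1 and 7.08-fold in KO2, against 1.38-fold in KMT2D-WT. ANKRD1 in experiment 1 went from 4.30 to 8.02 CPM in KO1, from 14.4 to 71.5 CPM in KO2 and from 38.0 to 92.1 CPM in KMT2D-WT, with 1 library per line and condition and no test. AMOTL2 was 1.67 and 1.91 times as high without glucose in KO1 and KO2 and 0.92 times as high in KMT2D-WT. The bars of deprivation by line show that CCN1, CCN2, AMOTL2 and TEAD4 went up in the libraries of both labels in both experiments by more than in KMT2D-WT.

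**Figure D4:**
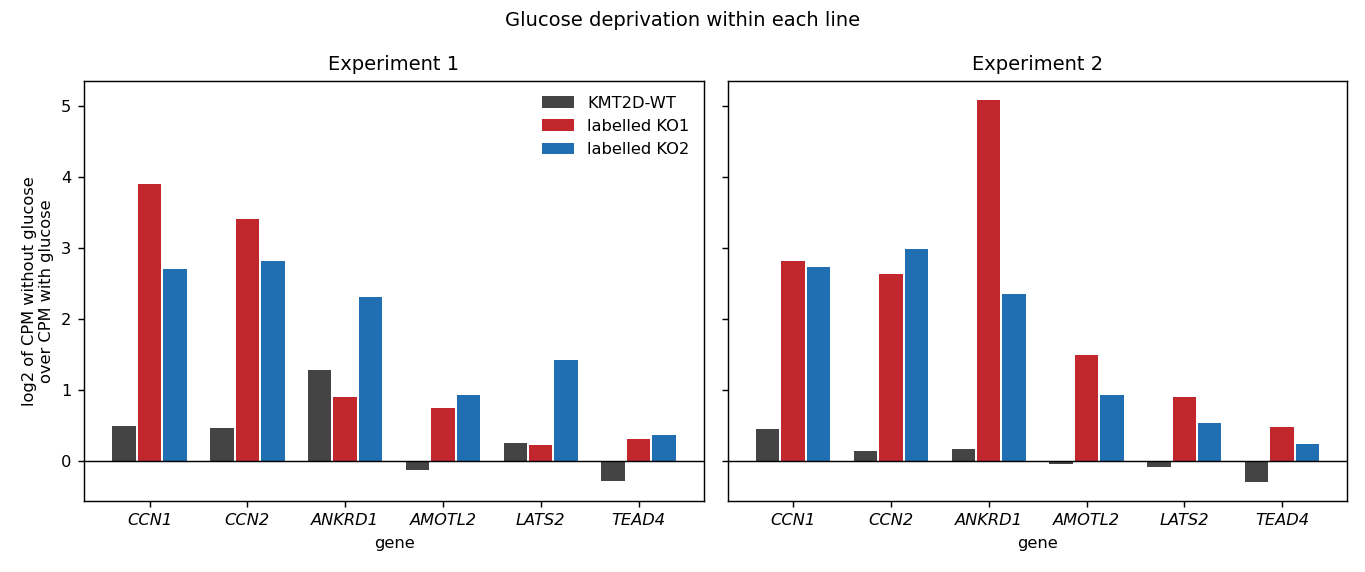
Log2 of the CPM without glucose over the CPM with glucose (y axis) for 6 genes by line, in experiment 1 and experiment 2, with each bar from 1 library per condition (KMT2D-WT of experiment 2 from the mean of 2). CCN1 in experiment 1 stands at 3.90 in KO1, 2.71 in KO2 and 0.50 in KMT2D-WT. In experiment 2 the conditions were also counted differently and the line of the deprived library labelled KO1 is in doubt, so its ANKRD1 bar of 5.08 compares libraries that may be of different lines.

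Other genes of the pathway were taken from lists written from general knowledge. Their counts stand beside the shares of all genes called, 13% higher and 11.7% lower with glucose and 25.9% higher and 24.9% lower without. Among 16 wider YAP/TAZ targets tested with glucose, 3 were higher and 4 lower in KMT2D-KO, with a median log2 fold change of -0.01 beside 0.02 over all genes. TGFB2, a ligand, was higher by 2.12 (adjusted p = 0.0466) and CCDC80, a matrix protein, by 0.86, whereas the ectonucleotidase NT5E (-1.17) and the membrane protein MYOF (-0.69) were lower. FOXF2, a forkhead factor, had 0 counts in the KMT2D-WT libraries and 0.629 to 3.56 CPM in KMT2D-KO, at least 93.4-fold higher against a floor of 3 counts over the group. Without glucose 6 of 15 were higher and 3 lower (median 0.09 beside 0.00). They included TGFB2 (3.62), the growth arrest gene GADD45A (1.55, adjusted p = 0.000104), the kinase NUAK2 (1.26) and IGFBP3 (0.85), with NT5E at -1.21. The interaction was called for 3 of 16, higher for GADD45A (1.63) and NUAK2 (1.18) and lower for FJX1 (-0.72), where 4.73% of all genes were called higher and 6.54% lower. With glucose the TGFB2 difference lay in KO2 (2.88, adjusted p = 3.34e-09, edgeR), while KO1 gave 0.43 (adjusted p = 0.0817). Without glucose TGFB2 spread widely, from 12.85 to 182 CPM in KMT2D-KO, beside 7.39 to 11.67 CPM in KMT2D-WT. Of its exonic bases, 24.8% are shared with other genes, whose reads cannot be told apart.

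In the TEAD and VGLL family, whose VGLL proteins bind TEADs in place of YAP, 2 of 5 genes were higher and 1 lower with glucose (all genes 13% and 11.7%), and 3 of 5 were higher and 0 lower without (25.9% and 24.9%), with medians of 0.21 and 1.42. TEAD2 was higher in both conditions (1.16 and 2.36) but low in level, at 6.56 ± 0.97 CPM (SD, n = 4) in KMT2D-KO and 2.87 ± 0.25 CPM (n = 3) in KMT2D-WT with glucose. VGLL3 was 9.51 ± 0.89 CPM (n = 3) in KMT2D-WT and 15.5 ± 4.05 CPM (n = 4) in KMT2D-KO with glucose, and 11.4 ± 3.20 and 84.9 ± 48.4 CPM without. Its log2 fold change went from 0.73 to 2.94 and the interaction was called (2.24, adjusted p = 0.00459, edgeR). VGLL1 was called higher without glucose (1.42) and TEAD3 lower with it (-0.33).

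Of 26 Hippo kinases and regulators, 10 were called lower and 1 higher with glucose, where 11.7% and 13% of all genes were. Without glucose 12 were called lower and 3 higher, beside 24.9% and 25.9% of all genes (medians -0.19 and -0.35). NF2 (merlin), which recruits LATS to the membrane, was 334 ± 60.2 CPM (n = 3) in KMT2D-WT and 137 ± 31.1 CPM (n = 4) in KMT2D-KO with glucose, and 295 ± 71.5 and 91.2 ± 25.6 CPM without, with log2 fold changes of -1.37 and -1.83 (adjusted p = 8.36e-05 and 3.11e-05, edgeR). The LIM proteins AJUBA (-1.02 and -0.74) and WTIP (-1.52 and -1.01), which act on LATS the other way by restraining it, were also lower in both. AMOTL1 (-0.64) and the kinase TAOK3 (-0.65) were among the larger changes with glucose, and the kinase TAOK1 (-0.85) and the cadherin FAT4 (-0.82) without. The interaction was called for 1 of the 26, MOB1B (-0.79).

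MRTF-SRF cytoskeletal targets, which share CCN1 and CCN2 as known targets, had 3 genes higher and 2 lower of 16 with glucose (all genes 13% and 11.7%), and 11 higher and 1 lower of 16 without (25.9% and 24.9%), with medians of 0.15 and 0.77. By line with glucose, 3 were higher and 5 lower in KO1 (all genes 17% and 16.5%), and 9 higher and 3 lower in KO2 (18.8% and 18%). The interaction was called for 2 of the 16, both higher, where 4.73% of all genes were called higher and 6.54% lower. TAGLN (transgelin) was higher by 2.54 with and 3.39 without glucose, MYL9 (a myosin light chain) by 1.69, ACTG1 (gamma actin) by 0.64 and 1.25, CNN2 (calponin 2) by 1.10 and the factor SRF by 1.03 without glucose. The tropomyosin TPM4 was higher with glucose (0.56). MYH9, the non-muscle myosin heavy chain, and ACTA2, smooth muscle actin, were lower with glucose (-1.08 and -1.0). With glucose the TAGLN difference was 3.37 in KO2 and 0.34 in KO1, the genotypes overlapped, and the adjusted p of both lines together was 0.0498 (edgeR). Of the exonic bases of TAGLN, 47.8% are shared with other genes, whose reads cannot be told apart. Of the squamous markers, 5 of 6 were higher without glucose, KRT5 (2.86) and KRT17 (2.16) most, then CDH1 (1.53), TP63 (0.70) and EPCAM (0.31). Among these, only KRT17 had all KMT2D-KO libraries above all KMT2D-WT libraries, and the groups overlapped for the others. KRT14 was lower with glucose (-1.74), and whether these changes bear on CCN1 and CCN2 was not tested.

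**Figure D5:**
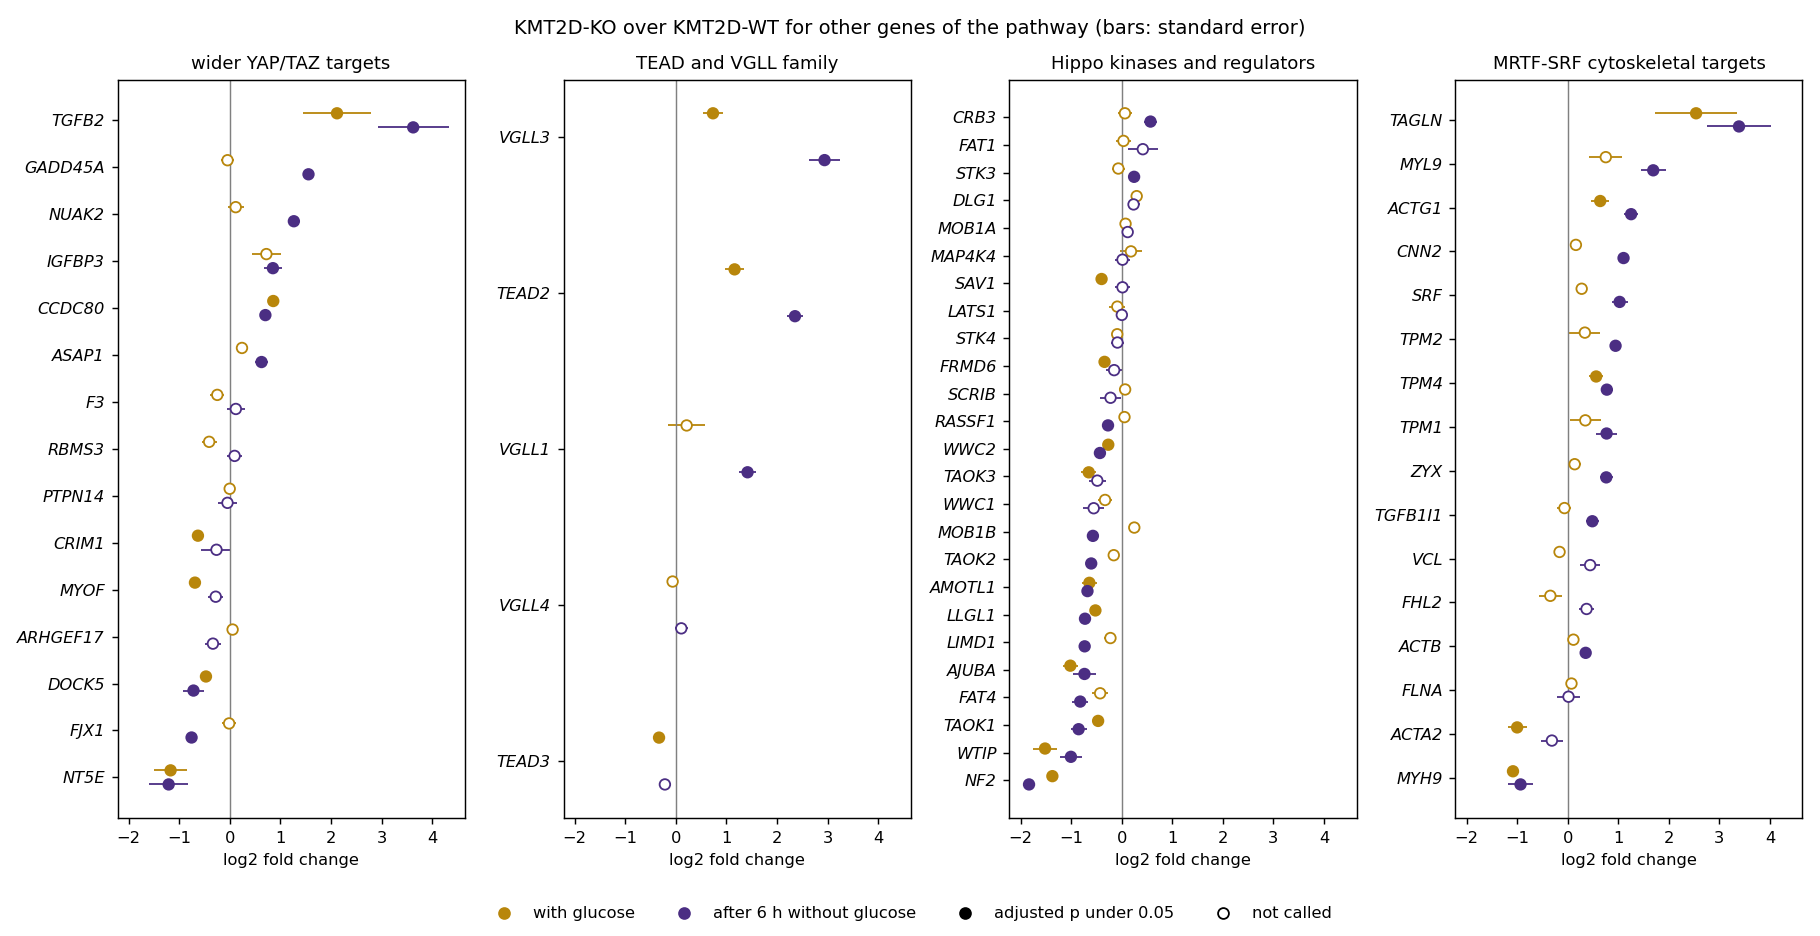
Log2 fold change of KMT2D-KO over KMT2D-WT (x axis, points with standard error) for tested genes of 4 lists with and without glucose, filled where the adjusted p was under 0.05. NF2 lies at -1.37 and -1.83, VGLL3 at 0.73 and 2.94, and GADD45A at -0.05 and 1.55. FOXF2 and AMOT, which had 0 counts in a whole KMT2D-WT group, are left out.

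The genes most like CCN1 and CCN2 across the libraries were found by Pearson's r over the 14 libraries among 10879 genes with a mean of at least 5 CPM, after subtracting the mean of each experiment and glucose condition. For CCN1 they were the RNA-binding protein HNRNPL (r = 0.985), GADD45A (0.975) and the adhesion adaptor SORBS3 (0.971). CCN2 had CLCF1, a cytokine (0.954), RBM18 (0.939) and the hexokinase HK1 (0.939). These values describe the 14 libraries, which differ in genotype and depth. The difference between genotypes was not subtracted, and the deprived KMT2D-KO libraries weigh most in these values.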

How the data were processed

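RNA-seq counts of 14 libraries were used. The authors mapped reads to GRCh38 with HISAT2 and counted them per gene name with featureCounts 2.0.3 on Ensembl 102, without strand, and the deposited values are unnormalised counts per gene. The file headers record primary alignments, with both mates counted in 4 libraries.

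Libraries were grouped by their labels. The test was the quasi-likelihood F-test of edgeR 4.0.16 (R 4.3.3) after TMM scaling, on genes kept by filterByExpr (minimum count 10), with a limit of 0.05 on the p adjusted over all genes tested, with experiment as a covariate, which served as the block; the methods of the study name DESeq2 and no covariate. Standard errors follow from the F statistic, and n counts libraries. The 10 genes and the lists were chosen with earlier results of these data known. From each list, up to 5 called genes with the largest change and a mean of at least 1 CPM were named per genotype comparison. NUAK2, GADD45A, TGFB2 and TAGLN were also given by line or interaction after their values had been seen. FJX1, MOB1B and VGLL3 were given for the interaction, also outside that rule. Alternatives were no covariate, DESeq2 1.42.0, RLE, no low-count filter, single experiments, all libraries in 1 fit, halved mate counts, summed close pairs, each library left out, and, added after the data had been seen, single lines. Methods were tested on simulated data. Promoter sequences and start sites are RefSeq entries of GRCh38.p14, and gene positions are those of the count files (GRCh38).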

Additional observations from a re-analysis of the deposited data

Results flagged for a closer look

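Among the 20 groups of 4 KMT2D-KO libraries checked, 3 held a library that stood far from the others. Each group mixed lines and experiments, so no chance rate is given. All 3 were the deprived KO1 library of experiment 1, which was the highest for CCN1 (3781 CPM) and CCN2 (767.5 CPM) and the lowest for AXL (369.6 CPM). It was also the library with the lowest KMT2D (19.9 CPM). Over the 12 genes that separate the lines it lay 0.401 log2 units from KO1, while every other deprived KMT2D-KO library lay nearer to KO2. The part of the line in these values was not tested.

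The effect of KMT2D-KO differed between the glucose conditions, by the interaction in edgeR, for CCN2 (2.67 log2 units), CCN1 (2.54), AMOTL2 (1.13) and TEAD4 (0.63), each higher without glucose.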

How the results depend on the processing

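Experiment was the block in each fit, and no other pairing of libraries was used. Without the block, 1 of the 10 genes was called with glucose (CCN2) in place of 5, where 4.75% of all genes were called. The count was 4 in place of 5 without glucose (21.8% of all genes) and 2 in place of 4 for the interaction (CCN1 and CCN2, 0.375%). With glucose, DESeq2 with no covariate called 2 (ANKRD1 and CCN2, 12.6% of all genes) and experiment 2 alone 2 (11.7%). Experiment 1 alone held 1 KMT2D-WT library per condition, so its calls are not counted. Its log2 ratio of mean CPM for CCN2 was -1.01 with and 1.67 without glucose. Without glucose, experiment 2 alone called 9 of the 10, where 74.5% of all genes were called, and the summed pairs 3 (16.5%). The interaction gave 2 with the pairs summed (1.23% of all genes). On deprivation, the 0 calls in KMT2D-WT became 1 with no low-count filter (0.579% of all genes) and 1 at experiment 2 (28.4%). They became 3 in experiment 1 alone with line as a block (1.1%), where the genotypes were not separated and the 6 in KMT2D-KO also became 3. Leaving out 1 library gave 1 to 5 calls with glucose (10% to 26.1% of all genes) and 3 to 9 without (34.3% to 74.4%). For the interaction it gave 4 to 7 (4% to 22.5%). On deprivation it gave 0 in KMT2D-WT (0.00508% to 1.73%) and 5 to 8 in KMT2D-KO (20.9% to 33.7%).

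Signs changed only for values that were small and not called in the report. With glucose, WWTR1 was -0.0087 in experiment 2 alone, -0.21 for KO2 alone and -0.0613 to 0.17 without 1 library, and TEAD1 was 0.0281 for KO2 alone and -0.14 to 0.0024 without 1 library. Without glucose, TEAD1 was -0.0324 without the block, -0.14 in experiment 1 alone and -0.12 to 0.24 without 1 library, and AXL was -0.0669 in experiment 1 alone and -0.0554 to 0.0855 without 1 library. CCN2 between the lines ranged from -0.0406 to 0.42. With RLE normalisation and with halved mate counts, the AMOTL2 call with glucose was lost (adjusted p = 0.0535 and 0.05, edgeR).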
